A study of Mus musculus with 16 samples.

Results

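The 10 genes described here, Slpi, Wfdc1, Wfdc2, Dmbt1, Lrg1, Lcn2, Ltf, Bpifa1, Bpifb1 and Pigr, encode antiproteases and host defence proteins that airway epithelium secretes or, for Pigr, sheds. They were measured in airway epithelial cells from C57BL/6 mice grown at an air-liquid interface, on 16 Affymetrix arrays with 1 culture each. They are 10 of the 18193 genes with a probe set of their own, and were chosen by symbol. Some of them were picked from the genes that responded to scratching in these same data. For that reason every scratch difference below is a description with no test. The comparison of genotypes was not itself a rule of the choice and was tested. It uses the same arrays as the scratch responses behind the choice, so its p-values are not independent of that choice.

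The cultures formed 4 groups of 4: wild-type uninjured, wild-type scratched, Mmp7-/- uninjured and Mmp7-/- scratched. Mmp7-/- mice, called Mmp7-null here, lack matrilysin, a secreted metalloprotease that airway epithelium makes at wounds. Scratched cultures had received 3 parallel scratches with a pipette tip. All cultures, the uninjured ones included, spent their last 24 h before RNA isolation without serum. The labels give neither the time from scratching to harvest nor which cultures came from the same mouse, so p-values measure only the spread between these cultures, which may be technical. The labels do not say in which cells Mmp7 was lost beyond giving the genotype of the mice.

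Values are log2 of the intensities the authors deposited, where 1 unit is a doubling, and 2.97 marks the background, the level under which 95% of readings of absent control transcripts lay. The probe set of Mmp7 read between 2.13 and 2.59 on all 16 arrays, below background in wild-type cultures too, so it does not check the genotype labels. The labelled cell type was borne out by its markers: Epcam lay between 11.4 and 11.8, Cdh1 between 13.1 and 13.5, Foxj1 of ciliated cells between 8.24 and 9.78, Krt5 of basal cells between 10.1 and 11.3, and Scgb1a1 of club cells between 7.95 and 8.82. These ranges span all 4 groups, and Foxj1 and Krt5 differed between groups, as given below. Control (spike-in) transcripts added to the samples divided the arrays into 3 sets, named here by the transcript that was high: Lys (4 Mmp7-null arrays), Phe (both genotypes, 6 arrays) and Trpn (6 wild-type arrays). What these sets stand for is not given in the labels. Each genotype comparison therefore has both genotypes in the Phe set only, with 2 Mmp7-null arrays and 1 wild-type array in each state. For the lead probe set of every gene it is given below also from a fit that blocks on the set and within the Phe set. Values within the Phe set come from a fit of all 16 arrays with 1 mean per group and set. The wild-type Phe array has no replicate in its state, so standard errors and p-values there rest largely on arrays of the other sets. Upper quartiles of intensity ranged from 115 to 134. Wild-type scratched replicates 3 and 4 and Mmp7-null scratched replicate 1 had either the lowest upper quartiles or the widest gap between the ends of the actin transcript.

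Airway secretions protect the surface in several ways. SLPI and the other whey acidic protein (WAP) domain proteins include inhibitors of serine proteases, above all neutrophil elastase; lipocalin 2 and lactoferrin hold iron away from bacteria; the BPI-fold proteins coat the surface and bind bacterial lipid; DMBT1 is a large scavenger glycoprotein that agglutinates microbes. The polymeric immunoglobulin receptor carries dimeric IgA across the epithelium and is cleaved to release secretory IgA. Genes of this kind are commonly induced through NF-kB, C/EBP, AP-1 and STAT factors after infection or cytokine exposure.

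Stretches upstream of 4 members are shown because these genes represent the 4 patterns found below: a scratch response of opposite direction in the genotypes (Slpi), a small increase at very high signal (Lcn2), a large increase from near background (Lrg1) and a lower level in Mmp7-null cultures (Pigr). Each is the 250 bases before the annotated start of the gene in RefSeq (GRCm38.p6), written 5′ to 3′ on the strand of the gene. They lie at chr2:164356508-164356757 (minus strand) for Slpi, chr2:32387740-32387989 (minus strand) for Lcn2, chr17:56121947-56122196 (minus strand) for Lrg1 and chr1:130826434-130826683 (plus strand) for Pigr. Capitals mark matches to the C/EBP motif.
Slpi: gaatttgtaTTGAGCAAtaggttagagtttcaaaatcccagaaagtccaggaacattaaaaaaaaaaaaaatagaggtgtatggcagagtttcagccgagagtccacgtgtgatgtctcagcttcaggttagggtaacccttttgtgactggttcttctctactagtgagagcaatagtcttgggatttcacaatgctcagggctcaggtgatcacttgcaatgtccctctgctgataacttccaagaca
Lcn2: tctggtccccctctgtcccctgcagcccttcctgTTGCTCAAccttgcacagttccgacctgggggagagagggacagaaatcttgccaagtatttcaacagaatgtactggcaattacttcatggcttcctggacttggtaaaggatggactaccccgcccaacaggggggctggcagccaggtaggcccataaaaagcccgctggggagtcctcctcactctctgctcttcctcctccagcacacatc
Lrg1: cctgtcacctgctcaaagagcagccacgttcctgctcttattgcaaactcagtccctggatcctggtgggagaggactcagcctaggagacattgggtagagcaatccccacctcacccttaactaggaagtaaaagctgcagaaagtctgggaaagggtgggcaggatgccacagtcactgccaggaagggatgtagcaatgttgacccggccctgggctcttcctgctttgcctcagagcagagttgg
Pigr: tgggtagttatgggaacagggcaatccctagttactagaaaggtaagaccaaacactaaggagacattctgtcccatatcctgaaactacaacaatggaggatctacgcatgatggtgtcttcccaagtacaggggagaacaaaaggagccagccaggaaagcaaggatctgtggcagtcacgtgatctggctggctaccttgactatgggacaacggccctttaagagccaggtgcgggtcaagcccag

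Windows from 250 bases before to 50 after the start were searched on both strands for 8 of the 10 members, which had 10 windows in all because Wfdc2 and Bpifb1 have more than 1 start. The C/EBP motif TTGCNNAA was found in 3 of the 10 windows, each of a different member, against 10.8% of 32817 windows of all genes: 241 bases before the start of Slpi, 216 before that of Lcn2 and 75 before that of Ltf. The AP-1 motif TGANTCA occurred 155 bases before the start of Bpifa1, and 7.81% of all windows hold it. The STAT motif TTCNNNGAA, held by 8.29% of all windows, occurred 146 bases before a start of Bpifb1 and 39 bases after the start of Pigr, outside the stretch shown. The NF-kB consensus, present in 4.50% of all windows, was in 0 of the 10. These matches describe letters in the windows and do not show binding.

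**Figure D1:**
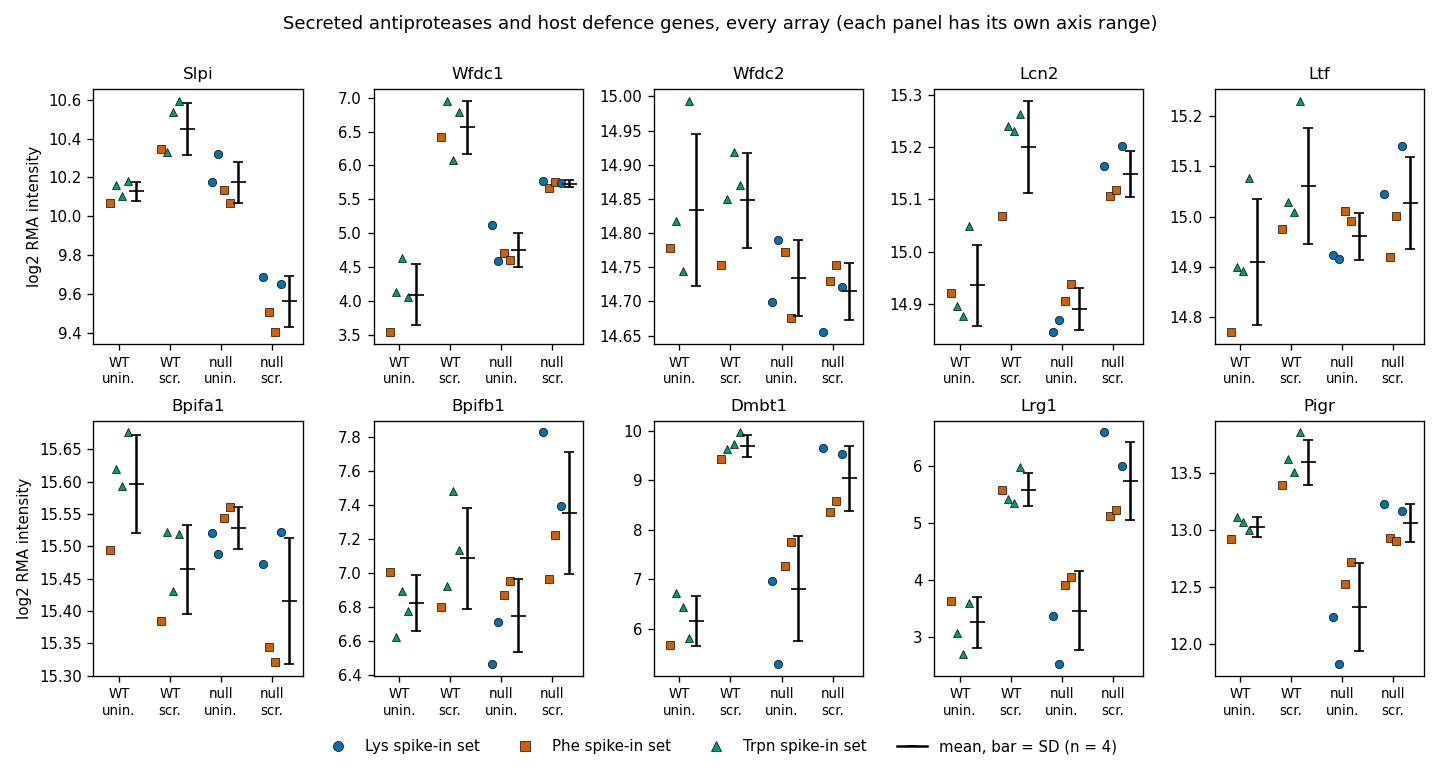
Log2 RMA intensity of each of the 10 genes on every array, 1 panel per gene with its own axis range; symbols give the control-transcript set of the array, and the bars beside them the mean and SD of 4 arrays. Slpi is higher in the scratched wild-type arrays and lower in the scratched Mmp7-null arrays than in either uninjured group, while Dmbt1 and Lrg1 are higher in the scratched arrays of both genotypes.

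Among the antiproteases, Slpi had the clearest difference between genotypes. Slpi encodes secretory leukocyte protease inhibitor, a WAP protein that blocks elastase and cathepsin G and kills bacteria. Its probe set, 1448377_at, read 10.07, 10.16, 10.11 and 10.18 in wild-type uninjured replicates 1 to 4, and 10.34, 10.33, 10.54 and 10.60 in the wild-type scratched ones. In Mmp7-null cultures it read 10.18, 10.32, 10.13 and 10.07 uninjured, and 9.69, 9.51, 9.40 and 9.65 scratched. The uninjured groups of the genotypes overlapped, every scratched wild-type array lay above them, and every scratched Mmp7-null array lay below them.

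Without injury the Slpi mean was 10.13 ± 0.05 (SD, n = 4) in wild-type and 10.17 ± 0.11 (n = 4) in Mmp7-null cultures, a difference of 0.05 that did not pass the test (limma, adjusted p = 0.98; 0.04 in the blocked fit and 0.03 within the Phe set). After scratching the means were 10.45 ± 0.13 and 9.56 ± 0.13 (n = 4 each). That difference of -0.89 (standard error 0.08), or 0.54-fold, passed (limma, Benjamini-Hochberg adjusted p = 3.6e-05). The call shares its scratched arrays with the scratch responses that helped choose some of these genes, and is not independent of them. With the control-transcript set as a block the Slpi difference was -0.90 (limma adjusted p = 0.00079), and within the Phe set, with 1 wild-type array, -0.89. It passed under all 29 alternative settings tried, with values from -0.93 to -0.82.

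The scratch difference of Slpi was 0.32 (standard error 0.08) in wild-type and -0.61 (0.08) in Mmp7-null cultures. In wild-type it was 0.34 within the Trpn set and 0.28 within the Phe set; in Mmp7-null cultures it was -0.58 within the Lys set and -0.65 within the Phe set. Without the 3 doubtful arrays the wild-type value was smaller, at 0.21. Scratched and uninjured arrays were apart in both genotypes for 651 genes. Of these 651, 11 (0.0605% of all genes) moved in opposite directions in the genotypes, Slpi among them. Since scratch responses helped choose the genes described here, nothing is read from this count.

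Wfdc1, a WAP-domain protein also called ps20 that is known as a growth-restraining secreted factor, had a low signal in uninjured cultures and was higher in every scratched array than in any uninjured array of its genotype. Its probe set, 1431335_a_at, read 3.54, 4.14, 4.64 and 4.05 in wild-type uninjured cultures and 6.43, 6.96, 6.09 and 6.79 in wild-type scratched cultures. Mmp7-null cultures read 5.13, 4.59, 4.70 and 4.61 uninjured and 5.77, 5.67, 5.76 and 5.74 scratched. The scratched Mmp7-null arrays were nearly equal to one another, and all lay below the scratched wild-type arrays.

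The scratch difference of Wfdc1 was 2.47 (standard error 0.22), or 5.56-fold, in wild-type and 0.98 (0.22), or 1.97-fold, in Mmp7-null cultures. Adding 16 to the intensities before taking logs, which compresses dim genes, reduced the wild-type value to 1.74. Between genotypes, the scratched means of 6.56 ± 0.39 and 5.73 ± 0.05 (SD, n = 4 each) differed by -0.83 (standard error 0.22; limma adjusted p = 0.037). This call passed in 13 of the 29 alternatives: with the set as a block the difference was -0.55 (limma adjusted p = 0.46) and within the Phe set -0.71 (limma adjusted p = 0.59). It was also lost on leaving out any 1 of 9 arrays (all 4 Mmp7-null scratched arrays, wild-type scratched replicates 1, 2 and 4, Mmp7-null uninjured replicate 3 and wild-type uninjured replicate 4), with limma adjusted p between 0.0502 and 0.090. Uninjured, the means of 4.09 ± 0.45 and 4.76 ± 0.25 (n = 4 each) differed by 0.67 and did not pass (limma adjusted p = 0.11), although the value did pass without wild-type uninjured replicate 3 (limma adjusted p = 0.039) or the dimmest 40% of genes (0.049). It was 0.95 in the blocked fit (limma adjusted p = 0.21) and 1.12 within the Phe set (limma adjusted p = 0.41).

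Wfdc2, or HE4, a WAP protein abundant in airway secretions, hardly varied. Its probe set, 1424351_at, lay between 14.65 and 14.99 on all 16 arrays. The scratch difference was 0.01 in wild-type and -0.02 in Mmp7-null cultures (standard error 0.05 for each). Between genotypes it was -0.10 uninjured (limma adjusted p = 0.41) and -0.13 scratched (limma adjusted p = 0.16). The blocked fit gave -0.02 and -0.05, and the Phe set -0.05 and -0.01.

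Lcn2, Ltf and Bpifa1 also gave signals near the top of the scale, and their differences were small. Signals in this range can be compressed, which was not tested here. Among the 57 genes with a mean above 14, the largest absolute scratch difference was 0.36 in wild-type and 0.45 in Mmp7-null cultures. The largest between genotypes was 0.33 uninjured and 0.24 scratched. Their median absolute scratch difference was 0.09 in wild-type and 0.11 in Mmp7-null cultures, against 0.07 and 0.07 over all genes. Between genotypes that median was 0.06 uninjured and 0.08 scratched, against 0.06 and 0.08 over all genes.

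Lcn2, which encodes the siderophore-binding lipocalin 2, was a little higher in every scratched array. Its probe set, 1427747_a_at, read 14.92, 14.90, 14.88 and 15.05 in wild-type uninjured and 15.07, 15.24, 15.23 and 15.26 in wild-type scratched cultures. In Mmp7-null cultures it read 14.85, 14.87, 14.91 and 14.94 uninjured and 15.16, 15.11, 15.12 and 15.20 scratched. No scratched array fell within the uninjured range of its genotype. The scratch difference was 0.26 (standard error 0.05) in each genotype, or 1.20-fold, and 0.15 and 0.19 within the Phe set. The genotypes differed by -0.05 in either state (limma adjusted p = 0.87 uninjured and 0.45 scratched). The blocked fit gave 0.03 and 0.02, and the Phe set 0.00 and 0.04.

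Ltf encodes lactoferrin, the iron-binding protein of mucosal secretions. Its probe set, 1450009_at, lay between 14.77 and 15.23 on all arrays, and the scratched and uninjured arrays overlapped in both genotypes. The scratch difference was 0.15 in wild-type and 0.07 in Mmp7-null cultures (standard error 0.07 for each). Between genotypes it was 0.05 uninjured (limma adjusted p = 0.98) and -0.03 scratched (limma adjusted p = 0.75). The blocked fit gave 0.15 and 0.07, and the Phe set 0.23 and -0.01, of which none passed.

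Bpifa1 encodes SPLUNC1, a surfactant-like secreted protein of the upper airway. Its probe set, 1420347_at, lay between 15.32 and 15.68, and its scratched means were the lower ones in both genotypes. The scratch difference was -0.13 in wild-type and -0.11 in Mmp7-null cultures (standard error 0.05 for each), with overlapping arrays. Between genotypes it was -0.07 uninjured (limma adjusted p = 0.69) and -0.05 scratched (limma adjusted p = 0.52). The blocked fit gave -0.01 and 0.01, and the Phe set 0.06 and -0.05.

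Bpifb1 encodes LPLUNC1, a longer BPI-fold protein of goblet cells and glands, and its probe sets gave different pictures. The brighter one, 1439423_x_at, read 7.01, 6.62, 6.89 and 6.77 in wild-type uninjured and 6.80, 6.92, 7.48 and 7.14 in wild-type scratched cultures. In Mmp7-null cultures it read 6.46, 6.71, 6.87 and 6.95 uninjured and 7.82, 6.97, 7.22 and 7.39 scratched. The wild-type groups overlapped. The Mmp7-null groups did not, by a narrow margin: the highest uninjured array read 6.95 and the lowest scratched one 6.97. Its scratch difference was 0.26 in wild-type and 0.60 in Mmp7-null cultures (standard error 0.18 for each). The control-transcript sets disagreed on it: in wild-type it was 0.42 within the Trpn set and -0.21 within the Phe set, and in Mmp7-null cultures 1.02 within the Lys set and 0.18 within the Phe set.

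The dimmer probe set of Bpifb1, 1423719_at, had a scratch difference of -0.13 in wild-type and 0.65 in Mmp7-null cultures (standard error 0.24 for each). In Mmp7-null cultures it read 5.91, 6.06, 6.74 and 6.72 uninjured and 7.49, 6.60, 6.81 and 7.13 scratched, so these groups overlapped. Neither probe set passed between genotypes. The brighter one differed by -0.07 uninjured (limma adjusted p = 0.98) and 0.27 scratched (limma adjusted p = 0.34), with -0.07 and 0.27 in the blocked fit and -0.10 and 0.30 within the Phe set. The dimmer one differed by 0.12 uninjured and 0.90 scratched (limma adjusted p = 0.065 for the latter, over all probe sets). With the block those values were 0.51 and 1.28 (limma adjusted p = 0.97 and 0.11).

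Dmbt1 had the widest span of group means of the 10 genes. Its probe set, 1418287_a_at, read 5.67, 6.72, 6.45 and 5.81 in wild-type uninjured and 9.43, 9.64, 9.74 and 9.97 in wild-type scratched cultures. In Mmp7-null cultures it read 6.96, 5.28, 7.26 and 7.75 uninjured and 9.66, 8.37, 8.59 and 9.54 scratched. The scratched arrays stood clear of the uninjured ones in both genotypes, and the Mmp7-null arrays were the more scattered.

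The scratch difference of Dmbt1 was 3.53 (standard error 0.46), or 11.6-fold, in wild-type, and 2.23 (0.46), or 4.68-fold, in Mmp7-null cultures. The Mmp7-null value differed by set, at 3.48 within the Lys set and 0.98 within the Phe set, while in wild-type it was 3.46 within the Trpn set and 3.76 within the Phe set. In Mmp7-null cultures the part of the set in this difference was not tested. The genotypes did not differ past the threshold, with 0.65 uninjured (limma adjusted p = 0.64) and -0.65 scratched (limma adjusted p = 0.35). The blocked fit gave 1.09 uninjured and -0.21 scratched (limma adjusted p = 0.79 and 0.89). Within the Phe set they were 1.83 and -0.95 (limma adjusted p = 0.40 and 0.77).

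Lrg1 encodes leucine-rich alpha-2-glycoprotein, a secreted protein induced in the acute-phase response that binds the TGF-beta co-receptor endoglin. Its probe set, 1417290_at, read 3.63, 3.08, 2.70 and 3.60 in wild-type uninjured and 5.58, 5.42, 5.34 and 5.98 in wild-type scratched cultures. In Mmp7-null cultures it read 3.37, 2.52, 3.90 and 4.04 uninjured and 6.58, 5.12, 5.22 and 6.00 scratched. Wild-type uninjured replicate 3 and Mmp7-null uninjured replicate 2 lay below background, and all scratched arrays lay above every uninjured one.

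The scratch difference of Lrg1 was 2.33 in wild-type and 2.28 in Mmp7-null cultures (standard error 0.37 for each). With 16 added to the intensities it was 1.32 and 1.35. In wild-type it was 2.46 within the Trpn set and 1.94 within the Phe set, and in Mmp7-null cultures 3.35 within the Lys set and 1.20 within the Phe set. Between genotypes it was 0.20 uninjured (limma adjusted p = 0.98) and 0.15 scratched (limma adjusted p = 0.80). The blocked fit gave -0.01 and -0.06, and the Phe set 0.34 and -0.41, so the sign turned for the scratched cultures; none of these passed.

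**Figure D2:**
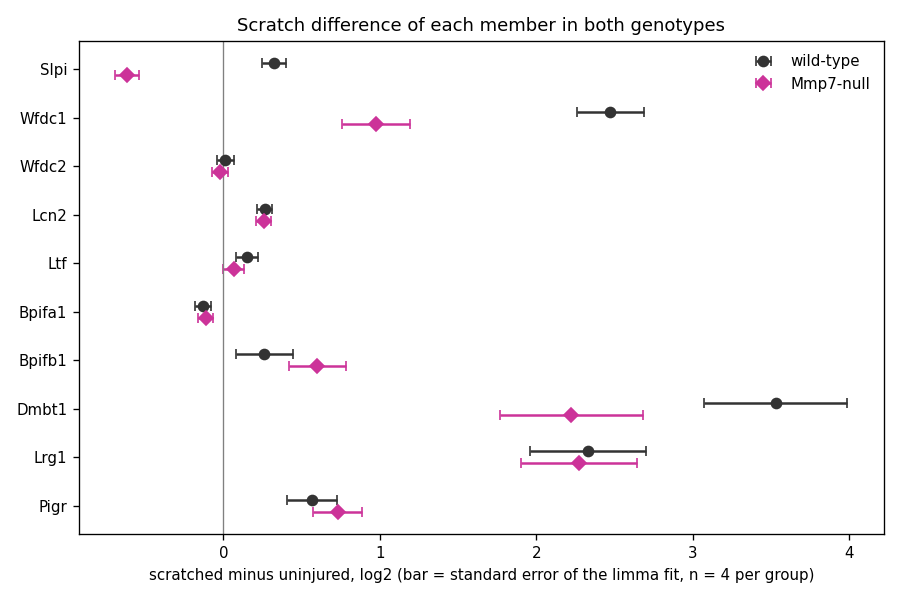
Scratched minus uninjured difference on the log2 scale for each of the 10 genes in wild-type (circles) and Mmp7-null (diamonds) cultures, with the standard error of the limma fit (n = 4 per group). Slpi lies at 0.32 in wild-type and -0.61 in Mmp7-null cultures, Dmbt1 at 3.53 and 2.23, and Lrg1 at 2.33 and 2.28.

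Pigr, the receptor that ferries IgA into the lumen, was lower in Mmp7-null cultures before injury. Its brighter probe set, 1455490_at, read 12.92, 13.11, 13.07 and 13.00 in wild-type uninjured and 13.39, 13.62, 13.50 and 13.85 in wild-type scratched cultures. In Mmp7-null cultures it read 12.24, 11.82, 12.52 and 12.71 uninjured and 13.23, 12.92, 12.90 and 13.17 scratched. In each state the genotypes did not overlap, and in each genotype the scratched arrays lay above the uninjured ones.

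The uninjured means of Pigr, 13.02 ± 0.08 in wild-type and 12.32 ± 0.39 in Mmp7-null cultures (SD, n = 4 each), differed by -0.70 (standard error 0.16), or 0.62-fold, which passed (limma adjusted p = 0.022). With the set as a block the difference was -0.47 (limma adjusted p = 0.57) and within the Phe set -0.30 (limma adjusted p = 0.89), so the call was lost in both. It was also lost when the 8 uninjured arrays were fitted alone (limma adjusted p = 0.077), and without Mmp7-null uninjured replicate 1 (0.073), wild-type uninjured replicate 2 (0.057) or wild-type uninjured replicate 3 (0.058). After scratching the means of 13.59 ± 0.20 and 13.06 ± 0.17 (n = 4 each) differed by -0.54, which did not pass (limma adjusted p = 0.064) and was -0.31 with the set as a block (limma adjusted p = 0.53) and -0.48 within the Phe set (limma adjusted p = 0.31). It did pass with array weights (-0.55, limma adjusted p = 0.027), without the dimmest 40% of genes (0.031), and without Mmp7-null uninjured replicate 2 (0.018) or 4 (0.039).

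The dimmer probe set of Pigr, 1450060_at, read 10.67, 10.78, 10.83 and 11.20 in wild-type uninjured cultures and 9.16, 8.96, 10.18 and 9.81 in Mmp7-null uninjured cultures. Here too the genotypes did not overlap, and the Mmp7-null arrays of the Lys set, replicates 1 and 2, were the lowest. The difference was -1.34 (standard error 0.23; limma adjusted p = 0.0061 over all probe sets). With the set as a block it was -0.99 (standard error 0.30; limma adjusted p = 0.30). After scratching it was -0.57 (limma adjusted p = 0.21), and -0.23 with the block (limma adjusted p = 0.72).

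The scratch difference of Pigr was 0.57 (standard error 0.16) in wild-type and 0.73 (0.16) in Mmp7-null cultures by the brighter probe set, and 0.41 and 1.18 by the dimmer one. Within sets the brighter one gave 0.60 (Trpn) and 0.47 (Phe) in wild-type, and 1.17 (Lys) and 0.29 (Phe) in Mmp7-null cultures. The scratch difference in Mmp7-null cultures had its larger value in the Lys set for Pigr, Dmbt1, Lrg1 and Bpifb1. The same held for Lcn2 (0.33 in the Lys set and 0.19 in the Phe set) and Ltf (0.17 and -0.04), while Bpifa1 was at -0.01 and -0.22, Wfdc1 at 0.89 and 1.06 and Wfdc2 at -0.06 and 0.02. The part of the set in these differences was not tested.

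**Figure D3:**
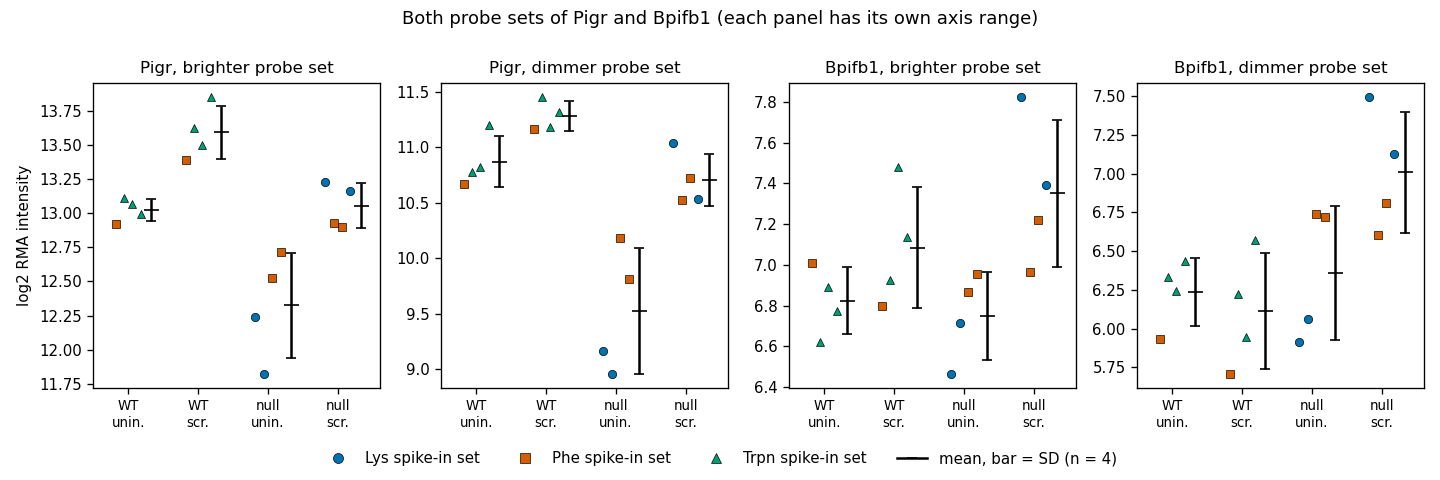
Log2 RMA intensity on every array for the brighter and the dimmer probe sets of Pigr and Bpifb1, with the mean and SD of 4 arrays; each panel has its own axis range. The dimmer Pigr probe set reads 9.16 and 8.96 in the Mmp7-null uninjured arrays of the Lys set, against 10.18 and 9.81 in those of the Phe set.

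**Figure D4:**
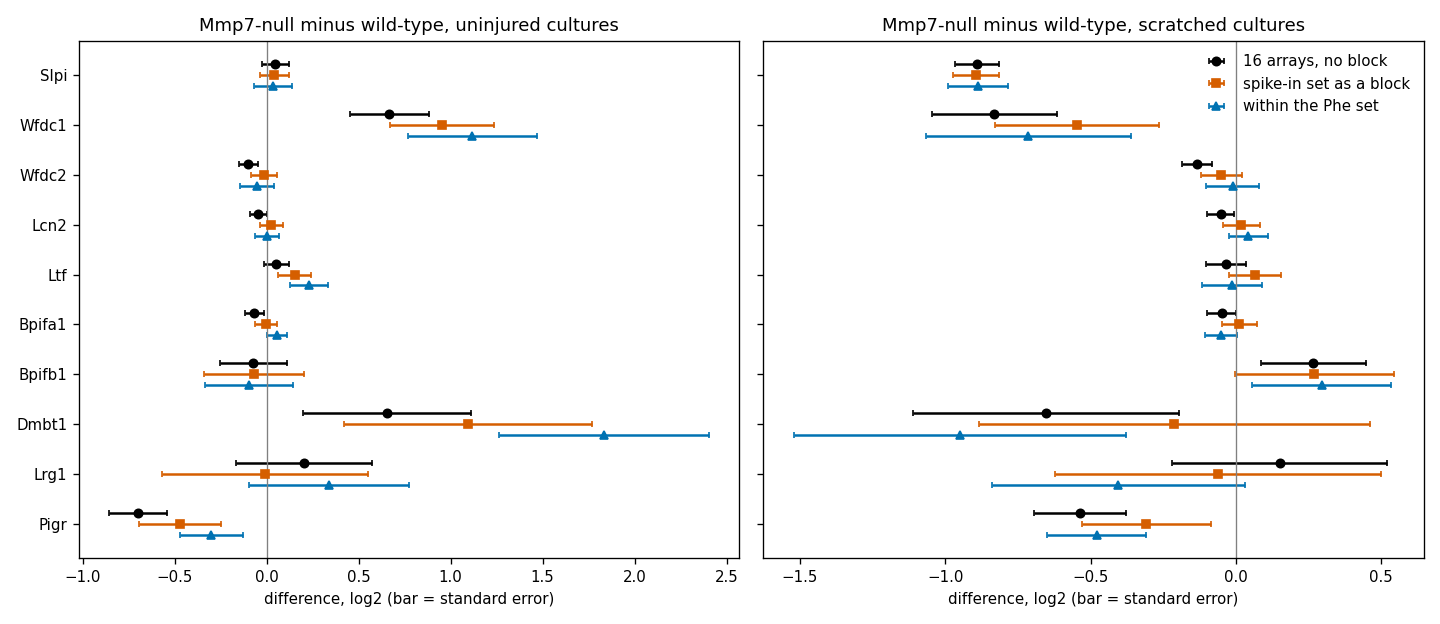
Mmp7-null minus wild-type difference on the log2 scale for each of the 10 genes, uninjured on the left and scratched on the right, with standard errors, from all 16 arrays with no block (circles), with the control-transcript set as a block (squares) and within the Phe set (triangles). Slpi in scratched cultures stays near -0.89 in all 3, while Pigr in uninjured cultures goes from -0.70 to -0.47 and -0.30.

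Over the 10 genes, the arrays of the scratched and uninjured groups did not overlap for 6 genes in wild-type cultures, all higher after scratching. In Mmp7-null cultures they did not overlap for 7, of which 6 were higher and 1, Slpi, lower. The 6 include Bpifb1, whose dimmer probe set did overlap there. Since scratch responses helped choose these genes, nothing is read from those counts; of all 18193 genes, 4.21% were higher without overlap in scratched wild-type cultures, and 12.8% did not overlap in Mmp7-null cultures (4.10% higher). Between genotypes, 1 of the 10 passed uninjured (Pigr, lower), against 4.79% of all genes (2.50% lower). After scratching 2 passed (Slpi and Wfdc1, both lower), against 6.21% of all genes (2.92% lower). Groups did not overlap for 1 gene uninjured (Pigr), where 11.7% of all genes did not, and for 3 genes scratched (Slpi, Wfdc1 and Pigr), where 32.7% did not, so the latter count is at the background. The median genotype difference over the 10 genes was 0.00 uninjured and -0.09 scratched, against -0.01 and -0.04 over all genes.

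The 3 genes with the widest span of group means were Dmbt1, Lrg1 and Wfdc1, and the genes with the most similar profiles over the 16 arrays were sought among 11645 others above background. Likeness was the root mean square difference in log2 after centring each gene on its own mean, where a smaller value is closer. Dmbt1, whose own root mean square deviation was 1.59, was closest to Muc5b, a secreted gel-forming mucin (0.63), Agr2, an endoplasmic reticulum protein needed for mucin folding (0.64), Ptgs2, the inducible cyclooxygenase (0.75), and the centromere gene Cenpa (0.82). Lrg1 (own deviation 1.25) was closest to Agr2 (0.53), Cenpf (0.54), Ptgs2 (0.58) and Mab21l3 (0.59). Wfdc1 (own deviation 0.98) was closest to Agr2 (0.34), the fatty acid binding protein gene Fabp5 (0.35) and the mitosis genes Ccnb2 (0.39) and Aspm (0.40). Mean Agr2 was 9.15 and 11.69 in wild-type uninjured and scratched cultures and 9.51 and 10.95 in the Mmp7-null ones.

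Other genes of the same pathways were counted in 6 lists. Calls over all genes, against which the counts below are to be read, were 4.85% for scratching in wild-type, 4.72% for scratching in Mmp7-null cultures, 4.79% for the genotypes uninjured and 6.21% scratched. The genotype calls in these lists come from the fit without a block, and few of them passed with the control-transcript set as a block: 0 of 10 uninjured and 3 of 19 scratched (Hp, Prss8 and Cebpd). Over all genes the block took the number of calls from 872 to 57 uninjured and from 1130 to 252 scratched. Within the Phe set 0 of the 10 passed, and 2 of the 19 (Prss8 and Klk13). Of the scratch calls in the lists, with a gene counted in each list that holds it, 20 of 21 in wild-type and 21 of 25 in Mmp7-null cultures passed with the block, and 2 and 2 within the Phe set, which has 1 or 2 arrays per group. Of 40 other genes of protease inhibitor families measured, scratching raised 2 and lowered 1 in wild-type. In Mmp7-null cultures it raised 3 and lowered 2. Serping1, the C1 inhibitor, rose by 0.88 in wild-type and 1.19 in Mmp7-null cultures, and Wfdc18 by 0.73 and 0.92. Serpinb2, a plasminogen activator inhibitor, rose by 2.11 in Mmp7-null cultures. Between genotypes 0 of the 40 passed uninjured; scratched, Cst6 (-0.59), a cystatin, and Serpinh1 (-0.44) were lower in Mmp7-null cultures and Serpinb11 (0.42) was higher, none of which passed with the block. Cst6 had a scratch difference of -1.25 in Mmp7-null cultures.

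Of 57 antimicrobial proteins and lectins, scratching raised 4 and lowered 1 in wild-type, and raised 8 and lowered 1 in Mmp7-null cultures. Ccl28, a mucosal chemokine with antimicrobial activity, rose by 0.59 and 0.67, and Reg3g, a lectin that kills Gram-positive bacteria, by 0.29 and 0.23. In scratched Mmp7-null cultures Itln1, a lectin for microbial sugars, rose by 1.19. Between genotypes uninjured, 1 was higher (Lgals3, 0.27) and 2 were lower in Mmp7-null cultures: Saa3, an acute-phase protein (-0.71), and Adm (-0.62). Scratched, 4 were higher and 0 lower: Itln1 (0.87), Hp, which is haptoglobin (0.86), Rnase4 (0.57) and Lgals3 (0.24). With the block only Hp of these passed (0.92, limma adjusted p = 0.0497), and none of the 3 uninjured ones. Lyz2, the lysozyme gene, did not pass in any of the 4 comparisons (0.34, 0.41, -0.01 and 0.06, in the order above). S100a8, S100a9, Serpina3n, Bpifa2 and Bpifb2 had means below background in every group.

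Of 14 genes of IgA transport, 1 rose with scratching in wild-type (Rab17, a small GTPase of epithelial transcytosis, 0.57) and 1 fell in Mmp7-null cultures (Vamp8, a fusion protein of secretory vesicles, -0.27). Between genotypes 0 passed uninjured, where Pigr did. Scratched, 3 were lower in Mmp7-null cultures, namely Fcgrt, the neonatal IgG receptor (-0.67), Rab17 (-0.44) and Vamp8 (-0.32), and 1 was higher (Exoc6, 0.38); none of these 4 passed with the block.

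Of 32 listed proteases, cathepsins included, 4 rose and 0 fell with scratching in wild-type, while 1 rose and 2 fell in Mmp7-null cultures. Tmprss4, a membrane serine protease, rose by 0.70 and 0.43. Prss8, or prostasin, which activates the epithelial sodium channel, rose by 0.34 in wild-type and fell by 0.33 in Mmp7-null cultures. Within the Phe set its scratch difference was -0.003 in wild-type, with 1 array per state, and -0.33 in Mmp7-null cultures. Scratched Mmp7-null cultures had less Prss8 (-0.73; limma adjusted p = 0.00016), Klk13 (-0.72), Hpn (-0.55) and Ctsz (-0.47) than scratched wild-type ones, the 4 of the list that passed, all lower. With the block Prss8 passed (-0.61, limma adjusted p = 0.020) and the others did not (Klk13 -0.93, limma adjusted p = 0.061; Hpn -0.41; Ctsz -0.25). Uninjured, Hpn (-0.68) and Ctsz (-0.38) were the 2 that passed, both lower, and neither passed with the block (-0.53 and -0.15). Elane, the neutrophil elastase that SLPI is best known for blocking, lay between 2.18 and 2.31 on all arrays, below background.

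Of 41 receptors and regulators upstream of such genes, 3 rose and 2 fell with scratching in wild-type, and 4 rose and 1 fell in Mmp7-null cultures. Nfkbiz, the NF-kB cofactor needed for Lcn2 induction, rose by 0.84 and 0.62, and Nfkbia, the NF-kB inhibitor, by 0.38 and 0.29. Il1rn, the interleukin-1 receptor antagonist, rose by 1.18 in Mmp7-null cultures. Cebpb fell by 0.29 in wild-type (limma adjusted p = 0.017), and had a difference of -0.20 in Mmp7-null cultures that did not pass; Socs3 passed in none of the 4 comparisons. Between genotypes uninjured, Relb (-0.74) and Il1r1 (-0.50) were lower in Mmp7-null cultures and Nfkbiz (0.25) higher. Scratched, Cebpa (-0.42) was lower, and Osmr (0.49), Cebpd (0.35) and Ahr (0.21) were higher. With the block only Cebpd of these 7 calls passed (0.57, limma adjusted p = 0.022).

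Of 14 receptors and partners of these proteins, 2 rose and 1 fell with scratching in wild-type, and 1 rose and 1 fell in Mmp7-null cultures. Tfrc, the transferrin receptor, fell by 0.54 and 0.26, and Sftpd, surfactant protein D, which binds DMBT1, rose by 0.31 and 0.34. Lgals1 rose by 1.75 in wild-type and was higher by 1.50 in uninjured Mmp7-null than in uninjured wild-type cultures. Lrp1, an endocytic receptor, was lower there (-0.63). With the block these were 1.29 and -0.39, and neither passed. Of the 14, 0 passed between scratched genotypes.

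In such cultures fewer cells of a type and less RNA per cell cannot be told apart. Neutrophils make Lcn2, Ltf, Slpi and Lrg1 themselves, so their markers were read beside these genes. Of 17 neutrophil markers measured, 2 had a mean above background in any group, Cd177 and, barely, Csf3r; Elane, Mpo and Prtn3 were below background on all arrays, Ctsg was below it on all but 1 wild-type scratched array (3.73), and Ptprc, the common leukocyte antigen, lay between 2.32 and 2.46. The summed linear intensity of the list was 364 to 455 in wild-type uninjured, 349 to 633 in wild-type scratched, 221 to 296 in Mmp7-null uninjured and 410 to 609 in Mmp7-null scratched cultures. Cd177 had a scratch difference of 1.41 in Mmp7-null cultures and a genotype difference of -0.95 uninjured, and both passed; the latter did not with the set as a block.

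Markers of fibroblasts and smooth muscle moved with both the scratch and the genotype. Of 14 measured, 8 were above background in some group, and Col1a1 had means below it in every group. Their summed intensity was 190 to 233 in wild-type uninjured, 290 to 426 in wild-type scratched, 297 to 469 in Mmp7-null uninjured and 501 to 862 in Mmp7-null scratched cultures. Dcn, Acta2 and Vim were the ones that passed in at least 1 of the 4 comparisons, all higher in scratched or in Mmp7-null cultures; with the block, of the genotype calls that of Vim in scratched cultures passed. Of 16 macrophage and monocyte markers, 8 were above background in some group, and their sum, 15359 to 18525 and 15224 to 18594 in uninjured wild-type and Mmp7-null cultures, was 19807 to 23556 and 19097 to 21188 in scratched ones. With scratching 3 of the 16 passed as higher in wild-type (Ccr2, Cd14 and Cd68) and 1 in Mmp7-null cultures (Ccr2), and 0 as lower. All of these passed also with the block. Ptprc was below background and Csf1r read 3.12 to 4.49 on all arrays, so the sum came from other genes of the list. Of 17 club and goblet cell markers, 12 were above background in some group, and Muc5b and Agr2 rose with scratching in both genotypes; their summed intensity was 117013 to 136869 and 112409 to 124207 in uninjured wild-type and Mmp7-null cultures and 130663 to 139707 and 120563 to 143785 in scratched ones. Of 11 lymphocyte and plasma cell markers, 4 were above background in some group, and the genotypes did not overlap in their sum: 8268 to 8672 in wild-type and 7089 to 7468 in Mmp7-null uninjured cultures, and 7132 to 8275 against 5657 to 6843 in scratched ones. Ptprc and Jchain had means below background in every group, and the sum was mostly that of Sdc1, which epithelium also expresses. Of 9 endothelial markers, 2 were above background in some group, Pecam1 had means below it in every group, and the sums were 70 to 90 in wild-type and 55 to 56 in Mmp7-null uninjured cultures, and 58 to 66 against 52 to 53 in scratched ones. Within each group only 1 or 2 of the 9 had means above background, so most markers in these sums lay below it. The part of these cell types in the differences of the 10 genes was not tested.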

How the data were processed

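RNA of 16 cultures, 4 in each of 4 groups, was measured on Affymetrix arrays. The authors deposited 1 intensity per probe set and array on a linear scale, normalized with RMA per the submitters' processing notes, which give no version. The labels name the 430A 2.0 array, while the table holds 45101 probe sets and was annotated with GEO's table for the 430 2.0 array. The deposited intensities were converted to log2 values. Control probe sets (64) were left out; 34945 probe sets had 1 symbol, 932 several and 9160 none. Each of 18193 genes was represented by its brightest probe set, with no filter on dim genes.

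With limma 3.58.1 (R 4.3.3), the 4 group means were estimated together from the 16 arrays (12 residual degrees of freedom), with empirical Bayes moderation and Benjamini-Hochberg adjustment over all genes at 0.05. On simulated data for the uninjured genotype comparison (18193 genes), 55% of 100 genes changed by 0.5 and 94% of 100 changed by 1 were recovered, with 9 false calls. The changed genes were drawn only from the 11655 with a mean above background, so these rates do not cover dimmer genes. The simulated noise was independent between arrays and held no effect of the control-transcript set. The false calls therefore do not cover differences between the sets. The number of arrays limits the precision.

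The members and the lists were chosen with earlier results of these data known. Of the lists, up to 4 passing genes per comparison with the largest difference and above background are named, plus a fixed set of defining genes. Genes that illustrate marker lists, such as Dcn, Acta2, Vim and Cd177, were named after their values were seen. Alternatives covered probe sets, filters, scaling, variance, control-transcript sets, replicate numbers and single arrays. Sequences are RefSeq's. Same-numbered arrays of different groups did not deviate together, so numbers were not used as pairs.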

Additional observations from a re-analysis of the deposited data

Results flagged for a closer look

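The scratch difference of Slpi in Mmp7-null minus that in wild-type cultures was -0.94 on the log2 scale. It stands out because all 4 scratched wild-type arrays lay above, and all 4 scratched Mmp7-null arrays below, the uninjured arrays of their genotype; the difference itself was not tested, since scratch responses helped choose these genes. In wild-type scratched cultures, Lcn2 read 15.07 in replicate 1, the only Phe array of that group. The other 3, all of the Trpn set, read between 15.23 and 15.26, and the part of the set was not tested. Replicate 1 lay apart from them by 0.831 of the group's range, just past the critical value of Dixon's test. Of 40 groups of 4 arrays looked at, 1 had such an array, where chance gives about 1 in 20.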

How the results depend on the processing

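The genotype calls of the 10 genes were recomputed under 29 alternatives, 16 of which left out 1 array each. Of 580 genotype values, 21 changed sign, none of them past the threshold in either setting. Slpi in scratched cultures passed in all 29. The count of genes passing uninjured, 1, was 2 without the dimmest 40% of genes, 0 with the control-transcript set as a block, within the Phe set or in the 8 arrays alone, and 0 to 1 on leaving out 1 array. The count passing scratched, 2, was 1 with a replicate block, with every probe set as its own row, with arrays centred on the median, with the set as a block, within the Phe set, in the 8 arrays alone or without the 3 doubtful arrays, 3 with array weights or without the dimmest 40% of genes, where Pigr joined, and 1 to 3 on leaving out 1 array. The replicate block changed no other call among the 10 genes than Wfdc1 scratched (-0.83, limma adjusted p = 0.078); replicate numbers did not pair the arrays (24 same-number pairs of arrays, correlation of deviations from -0.22 to 0.31, median -0.05). Where they were not given above, the causes of these changes were not tested.

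Of the scratch values, which have no test, 836 moved by less than 1 SD and 24 by more, mostly within the Phe set, where Bpifb1 in wild-type turned from 0.26 to -0.21. Over all genes, 872 passed between genotypes uninjured and 1130 scratched; these became 57 and 252 with the set as a block and 42 and 223 within the Phe set. Array weights gave 1745 scratched, the 8 arrays alone 527 scratched, the fit without the 3 doubtful arrays 1310 uninjured, and leaving out Mmp7-null uninjured replicate 1 or wild-type uninjured replicate 1 gave 480 or 534 uninjured. For scratching in wild-type, 883 passed, against 1405 with array weights and 204 within the Phe set. For scratching in Mmp7-null cultures, 859 passed, against 402 in the 8 arrays alone, 79 within the Phe set, and 516 and 528 without Mmp7-null uninjured replicate 2 or 3. Centring arrays on the median moved the higher against lower calls from 464 against 419 to 344 against 595 for scratching in wild-type, and from 599 against 531 to 600 against 316 between scratched genotypes. Readings near background (Lrg1, Wfdc1) and near the top of the scale (Lcn2, Ltf, Bpifa1, Wfdc2) can limit the size that is measured. The dimmer probe sets of Pigr and Bpifb1, also with the set as a block, and the lists in the blocked fit and within the Phe set, were added after seeing the data.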
